A study of Homo sapiens with 9 samples.

Results

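The genes described here encode autotaxin (ENPP2), its relative ENPP1, and receptors and phosphatases for lysophosphatidic acid (LPA). ENPP2 was chosen by its levels in all 3 groups, known from an earlier reading of these same arrays, so those levels are given as a description, with no test. The other genes were chosen for their roles in the pathway, with earlier results of these data known. Of 9 genes listed, 8 were on probe sets annotated to exactly 1 gene, out of 14215 such genes on the array. PLPP1 was not analysed here, because its probe set names 3 genes.

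The series measured total RNA from SKOV3, an established human ovarian tumour cell line, on 9 exon arrays. The 3 groups of 3 flasks each were untreated cells, cells given 50 µM peracetylated GlcNAc (Ac-GlcNAc), and cells given 50 µM peracetylated 4-deoxy-GlcNAc (Ac-4-deoxy-GlcNAc). Growth lasted 3 days in McCoy's 5A medium with serum, and the control is labelled untreated, with no vehicle named. GlcNAc is the amino sugar N-acetylglucosamine, whose hydroxyls are masked by acetyl groups so that it can enter cells, and the 4-deoxy analog lacks the hydroxyl on carbon 4. All 3 groups come from a single line, so the flasks replicate the culture and not the genetic background.

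Autotaxin is a secreted lysophospholipase D. It cleaves the choline from lysophosphatidylcholine outside the cell and so makes LPA, a lipid signal that drives migration, survival and growth factor release, and that is abundant in ovarian tumour ascites. LPA acts through G protein-coupled receptors. LPAR1, LPAR2 and LPAR3 form the EDG branch, and LPAR4 and LPAR6 belong to a P2Y-related branch. The phosphatases PLPP1, PLPP2 and PLPP3 sit in membranes with their active site facing outward or into the lumen, and they end the signal by removing the phosphate from LPA.

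Array medians lay between 6.58 and 6.65 on the log2 scale. Untreated replicate 2 had the narrowest range, its probe sets having an SD of 1.92 where the remaining 8 arrays had 2.07 to 2.18. Of 4 equal bins by mean level, probe sets in the lowest bin had a median log2 difference of -0.23 with Ac-GlcNAc and of -0.18 with Ac-4-deoxy-GlcNAc, both against untreated, while the highest bin had 0.11 and 0.06. The part of this offset in results on low probe sets was not tested. Markers of the line included ERBB2 at 12.24, KRT8 at 11.11 and PAX8 at 10.69, whereas WT1 was at 5.70. The 4 leukocyte markers ranged from 3.88 to 5.18, the 4 endothelial markers from 4.48 to 5.52 and the 3 adipocyte markers from 3.63 to 5.71. In bulk RNA, fewer cells with a transcript and less of it per cell cannot be told apart.

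ENPP2 lay on opposite sides of its untreated level with the 2 sugars. On the untreated arrays its log2 level was 6.56, 6.35 and 6.37. With Ac-GlcNAc it was 7.77, 7.66 and 7.68, and with Ac-4-deoxy-GlcNAc 5.38, 5.39 and 5.69. The 9 arrays fell into 3 separate bands, in the order Ac-4-deoxy-GlcNAc, untreated, Ac-GlcNAc. The lowest Ac-GlcNAc array lay 1.09 above the highest untreated array, and the lowest untreated array lay 0.66 above the highest Ac-4-deoxy-GlcNAc array. The widest spread within a group was an SD of 0.18 (n = 3), in the Ac-4-deoxy-GlcNAc flasks, where replicate 3 stood above the other two.

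**Figure D1:**
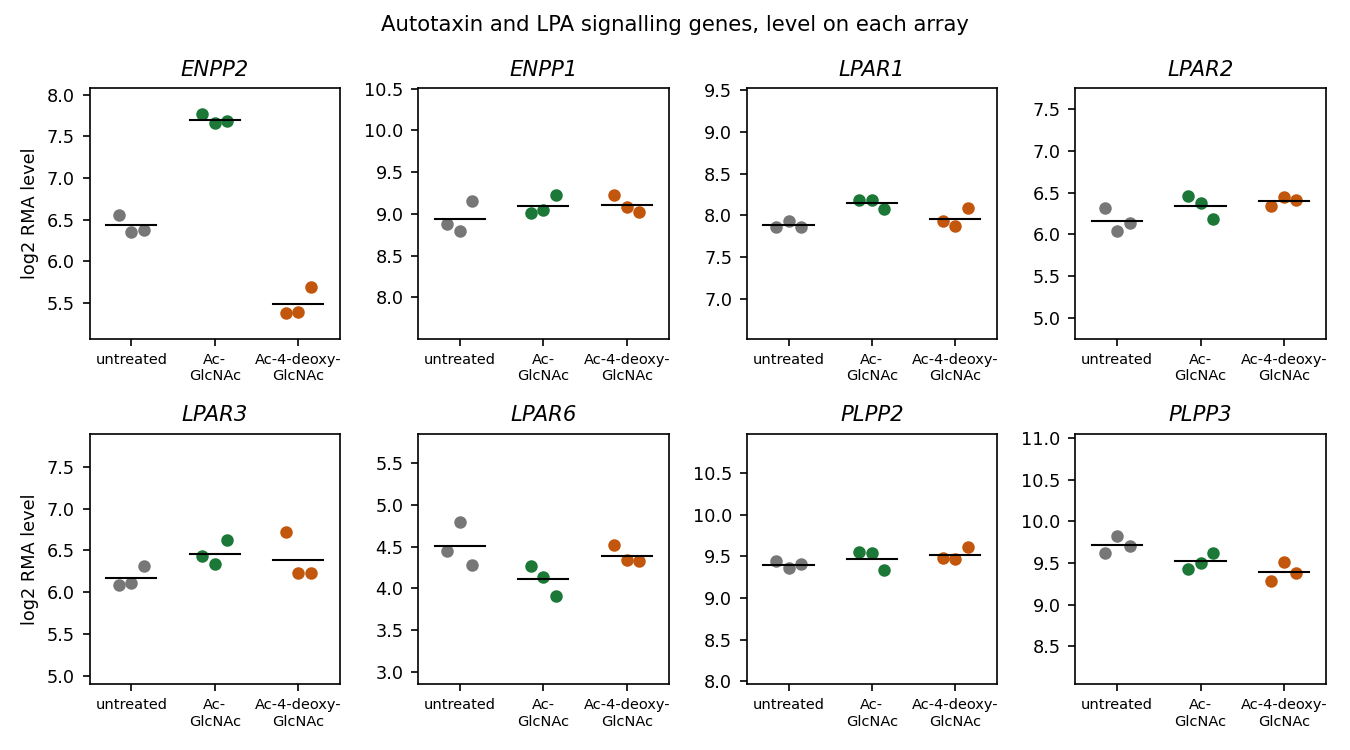
Log2 level of the 8 genes on each array. Each point is an array, grouped as untreated, Ac-GlcNAc and Ac-4-deoxy-GlcNAc, horizontal lines are group means, and every panel spans the same log2 range around its own centre. The ENPP2 means are 6.43, 7.70 and 5.49 with no overlap between groups, while no other panel shows 3 separate bands.

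The mean level of ENPP2 was 6.43 ± 0.12 (SD, n = 3) in untreated cells, 7.70 ± 0.06 with Ac-GlcNAc and 5.49 ± 0.18 with Ac-4-deoxy-GlcNAc. Against untreated cells it was 2.42-fold higher with Ac-GlcNAc (log2 1.27, SE 0.11) and with Ac-4-deoxy-GlcNAc it stood 1.92-fold below them (log2 -0.94, SE 0.11). At the same dose and time the compound lacking the hydroxyl gave a level 4.65-fold below that of Ac-GlcNAc (log2 -2.22, SE 0.11). The steps away from untreated share the untreated arrays. The Ac-4-deoxy-GlcNAc mean of 5.49 lay inside the range of the endothelial markers (4.48 to 5.52), and signal over background is not known.

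Few probe sets had their arrays ordered this way. Over all 17859 probe sets, 43 (0.241%) showed 3 separate bands in the order of ENPP2, and 17 (0.0952%) in the opposite order. With each step at least 1.5-fold, 1 probe set (0.00560%) met the criterion in the order of ENPP2, which was that of ENPP2 itself, and 0 in the opposite order. That criterion was set after the values were seen. The next largest smaller steps in the same order were 1.45-fold for ALDH3A1 and 1.34-fold each for TDO2 and CD52.

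By the root mean square difference over the 9 arrays, after each of 14215 genes was centred on its own mean, 5 genes were closest to ENPP2. They were ALDH3A1, an aldehyde dehydrogenase (0.44), TDO2, which opens the ring of tryptophan (0.45), SLC47A2, an organic cation exporter (0.46), MAP7D2 (0.49) and TCEANC (0.54). The ENPP2 profile itself had a root mean square of 0.91 about its mean, so none of the 5 follows it closely in size. ALDH3A1 had levels of 8.21, 8.01 and 8.09 in untreated cells, 8.77, 8.79 and 8.66 with Ac-GlcNAc, and 7.37, 7.68 and 7.65 with Ac-4-deoxy-GlcNAc. TDO2 had 6.55, 6.30 and 6.56, then 6.78, 6.73 and 7.17, then 5.52, 5.70 and 5.54. Each of the 5 genes showed 3 separate bands in the order of ENPP2, but some bands nearly touched. For MAP7D2 the highest untreated array was at 6.57 and the lowest Ac-GlcNAc array at 6.58. For SLC47A2 the lowest untreated array was at 7.23 and the highest Ac-4-deoxy-GlcNAc array at 7.14.

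SLC47A2 and MAP7D2 differed in which step was larger. SLC47A2 was 1.68-fold higher with Ac-GlcNAc and 1.27-fold lower with Ac-4-deoxy-GlcNAc, both against untreated. For MAP7D2 the steps were 1.2-fold and 1.94-fold. In the RefSeq gene order of GRCh38.p14, ALDH3A1 and SLC47A2 lie on the same chromosome with 0 protein-coding genes between them. These 5 genes were chosen for their likeness to ENPP2, so their differences are a description as well.

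**Figure D2:**
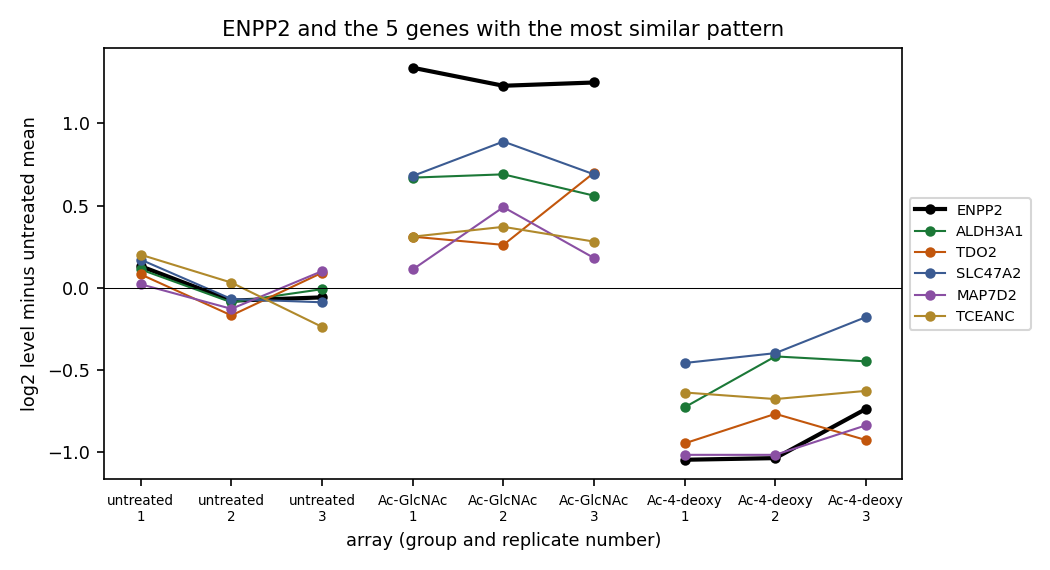
Log2 level minus the gene's untreated mean (vertical axis) on each of the 9 arrays (horizontal axis) for ENPP2 and the 5 genes with the smallest root mean square difference from it. All 6 genes lie above 0 on the Ac-GlcNAc arrays and below 0 on the Ac-4-deoxy-GlcNAc arrays, and ENPP2 is the highest on every Ac-GlcNAc array.

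The 3 nearest protein-coding genes on each side in RefSeq order, a set chosen after the ENPP2 values were seen, were all measured. With Ac-GlcNAc 0 of these 6 passed an adjusted p under 0.05, against 0.442% of all probe sets, and between the compounds 0 of 6, against 2.38%, so these counts are near the background. With Ac-4-deoxy-GlcNAc 2 of 6 passed, against 11.0%. CCN3, a secreted matricellular protein, was lower by 0.42 (log2 -0.42, SE 0.11, limma adjusted p = 0.0343), and TAF2, a subunit of the general transcription factor TFIID, was higher (log2 0.36, SE 0.10, adjusted p = 0.0332). Of the 9 fits that left out 1 array, CCN3 passed in 5 and TAF2 in 3, neither of them without untreated replicate 2 (adjusted p = 0.0525 and 0.0883). COLEC10, MAL2, DSCC1 and DEPTOR passed in no comparison.

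None of the 7 other measured genes of the pathway core passed an adjusted p under 0.05 in limma in any comparison. Across all probe sets 0.442% passed with Ac-GlcNAc, 11.0% with Ac-4-deoxy-GlcNAc and 2.38% between the compounds, so a count of 0 of 7 is near the background. Unadjusted p-values lay under 0.05 for 3, 2 and 0 of 7, against 26.4%, 31.2% and 13.6% of all probe sets. Groups stood apart, with no overlap between arrays, for 3, 3 and 1 of the 7, against 32.3%, 32.1% and 21.2% of all probe sets. With Ac-GlcNAc these were 2 higher and 1 lower (13.0% and 19.3% of all probe sets), with Ac-4-deoxy-GlcNAc also 2 higher and 1 lower (13.0% and 19.1%), and between the compounds 1 higher and 0 lower (9.56% and 11.6%). The median log2 difference of the 7 was 0.15, 0.12 and 0.01, against -0.02, -0.05 and 0.00 over all probe sets.

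**Figure D3:**
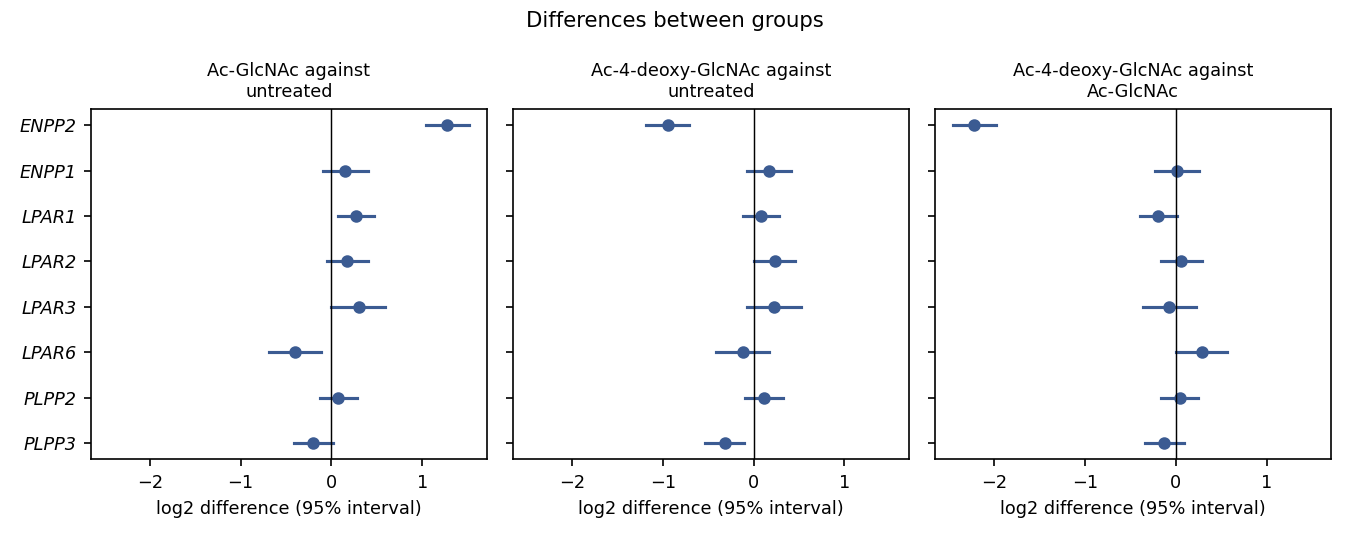
Log2 differences (points) with 95% intervals (lines) of the 8 genes in the 3 comparisons, from the fit over all 9 arrays. ENPP2 lies at 1.27, -0.94 and -2.22, and the other 7 genes lie between -0.40 and 0.30. The intervals of ENPP2 are a description only, since it was chosen by these levels.

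ENPP1, a cell surface relative of autotaxin that hydrolyses ATP and cyclic GMP-AMP and is not a source of LPA, did not follow ENPP2. Its log2 levels were 8.88, 8.79 and 9.15 in untreated cells, 9.01, 9.05 and 9.22 with Ac-GlcNAc, and 9.22, 9.08 and 9.02 with Ac-4-deoxy-GlcNAc. The groups overlapped. Its difference between the compounds was 0.01, with a 95% interval from -0.23 to 0.26, where ENPP2 had -2.22.

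Among the receptors, LPAR1, the most widely expressed LPA receptor, stood at 7.86, 7.93 and 7.86 in untreated cells, at 8.18, 8.19 and 8.08 with Ac-GlcNAc, and at 7.93, 7.87 and 8.09 with Ac-4-deoxy-GlcNAc. Every Ac-GlcNAc array was above every untreated array, while the Ac-4-deoxy-GlcNAc arrays reached into both other groups. The log2 difference of Ac-GlcNAc from untreated was 0.27 (95% interval 0.07 to 0.47, limma adjusted p = 0.115), which did not pass over all probe sets. Between the compounds it was -0.19 (-0.39 to 0.01, adjusted p = 0.416). With array weights the first of these passed (0.31, adjusted p = 0.0276).

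LPAR2 and LPAR3, the other receptors of the EDG branch, had small positive differences from untreated in both treated groups. LPAR2 was at 6.31, 6.04 and 6.14 untreated, 6.46, 6.37 and 6.18 with Ac-GlcNAc, and 6.34, 6.45 and 6.41 with Ac-4-deoxy-GlcNAc, and in that last group it lay above every untreated array. Its difference from untreated was 0.24 with Ac-4-deoxy-GlcNAc (95% interval 0.01 to 0.46, adjusted p = 0.141) and 0.17 with Ac-GlcNAc (-0.05 to 0.40, adjusted p = 0.293). LPAR3 ranged from 6.08 to 6.31 in untreated cells and from 6.34 to 6.63 with Ac-GlcNAc, a difference of 0.30 (0.00 to 0.59, adjusted p = 0.185). With Ac-4-deoxy-GlcNAc it was 6.72, 6.23 and 6.23, so that replicate 1 alone stood above the untreated range. Between the compounds LPAR2 differed by 0.06 (-0.16 to 0.29) and LPAR3 by -0.07 (-0.36 to 0.22).

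LPAR6, of the P2Y-related branch, had the lowest values of the 8 and lay in the lowest of the 4 bins of mean level. Its levels were 4.45, 4.80 and 4.28 in untreated cells, 4.27, 4.14 and 3.91 with Ac-GlcNAc, and 4.52, 4.34 and 4.33 with Ac-4-deoxy-GlcNAc. The highest array was untreated replicate 2, the array with the narrowest range. The difference with Ac-GlcNAc was -0.40 (95% interval -0.69 to -0.11, adjusted p = 0.109), and it was -0.26 without untreated replicate 2 and -0.18 after cyclic loess. With Ac-4-deoxy-GlcNAc the difference of -0.12 turned to 0.06 after cyclic loess. Over 20 alternatives the difference from untreated ranged from -0.51 to -0.05 with Ac-GlcNAc and from -0.23 to 0.13 with Ac-4-deoxy-GlcNAc.

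The phosphatases had no called difference either. PLPP2 stayed between 9.33 and 9.61 on all 9 arrays, and its difference between the compounds was 0.05 (95% interval -0.16 to 0.25). PLPP3, a major LPA phosphatase of the cell surface, was at 9.62, 9.82 and 9.70 in untreated cells, 9.43, 9.50 and 9.62 with Ac-GlcNAc, and 9.28, 9.51 and 9.38 with Ac-4-deoxy-GlcNAc. Every Ac-4-deoxy-GlcNAc array was below every untreated array. The difference was -0.32 (-0.54 to -0.11), at an adjusted p = 0.055 that did not pass. It passed under 6 of the 22 alternative settings, with an adjusted p of 0.0286 after cyclic loess, and it was -0.27 (adjusted p = 0.142) without untreated replicate 2. With Ac-GlcNAc the difference was -0.20 (-0.41 to 0.02, adjusted p = 0.224), and between the compounds -0.13 (-0.34 to 0.09, adjusted p = 0.716).

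For the 7 genes other than ENPP2, each 95% interval of the difference between Ac-4-deoxy-GlcNAc and Ac-GlcNAc lay within -0.39 to 0.57. The upper bound came from LPAR6 (0.29, interval -0.00 to 0.57) and the lower from LPAR1. These intervals do not show that the compounds act alike on these genes, since they leave room for differences of the sizes they span.

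Beyond the core, 102 genes of LPA metabolism and signalling were listed in 9 groups, and 86 of them were measured on probe sets of 1 gene. With Ac-GlcNAc 0 of 86 passed, against 0.442% of all probe sets, and 19 had an unadjusted p under 0.05. With Ac-4-deoxy-GlcNAc 11 passed, 4 higher and 7 lower, a share of 12.8% against 11.0% of all probe sets (5.38% higher and 5.64% lower). Between the compounds 2 passed, 1 higher and 1 lower, a share of 2.33% against 2.38% (0.896% higher and 1.48% lower). The shares are near the background in each comparison.

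**Figure D4:**
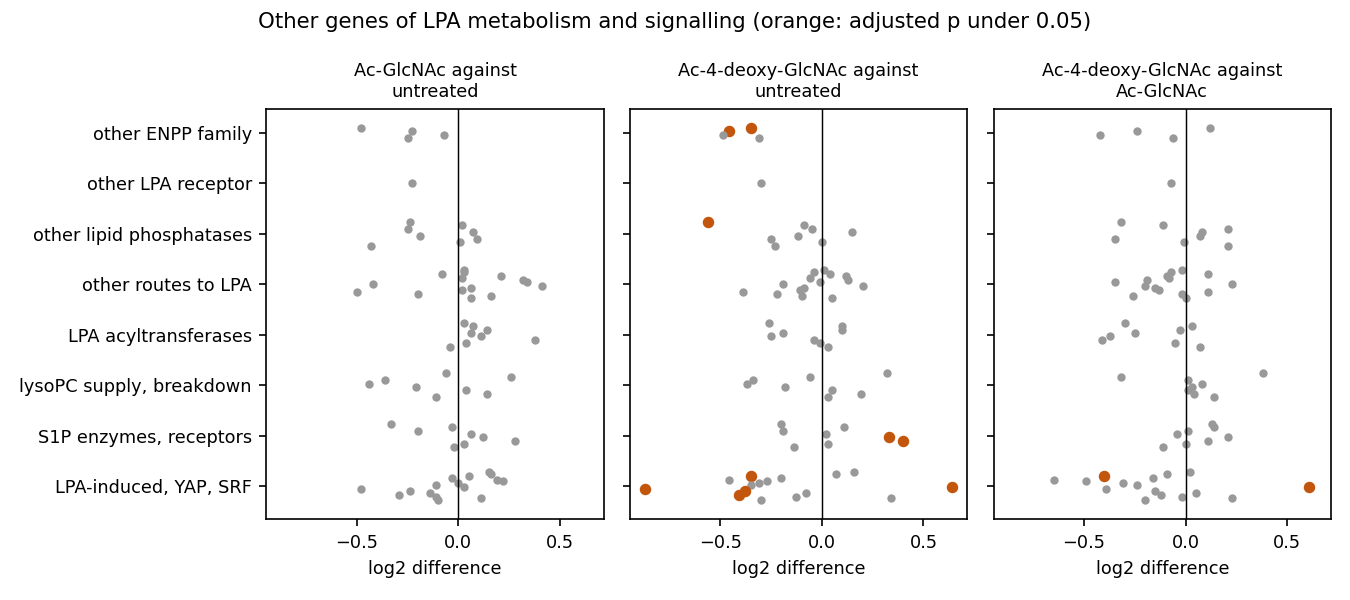
Log2 differences of 68 of the other LPA pathway genes in the 3 comparisons, in 8 rows by role. Each point is a gene, and orange points passed an adjusted p under 0.05. There are 0, 10 and 2 orange points, and all lie between -0.87 and 0.64.

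Of 4 other members of the ENPP family, 2 were lower with Ac-4-deoxy-GlcNAc, against 5.64% of all probe sets, and 2 did not pass. Those were ENPP5, with the largest fall (-0.49, SE 0.15, limma adjusted p = 0.0536), and ENPP6 (-0.31, adjusted p = 0.0774), which was in the lowest of the 4 bins. In all 4 genes the Ac-4-deoxy-GlcNAc arrays lay below the untreated arrays without overlap, against 19.1% of all probe sets. ENPP4, which hydrolyses Ap3A on vessel walls, fell by 0.46 (SE 0.11, adjusted p = 0.0222), and ENPP3 fell by 0.35 (SE 0.11, adjusted p = 0.0488). ENPP3 was at 4.63, 4.92 and 4.78 untreated, 4.37, 4.35 and 4.19 with Ac-GlcNAc and 4.47, 4.52 and 4.29 with Ac-4-deoxy-GlcNAc, thus in the lowest of the 4 bins, and had -0.48 with Ac-GlcNAc (adjusted p = 0.0673). ENPP3 passed in only 3 of 20 alternatives, with values down to -0.17, and in 1 of the 9 fits that left out 1 array. ENPP4 passed in 6 of those 9, and not without untreated replicate 2 (-0.39, adjusted p = 0.0641). ENPP5 and ENPP4 had the smallest p between the compounds (-0.42 and -0.24, adjusted p = 0.203 and 0.383).

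The 1 other LPA receptor measured, LPAR4, passed in no comparison. Its differences were -0.23 with Ac-GlcNAc and -0.30 with Ac-4-deoxy-GlcNAc (adjusted p = 0.207 and 0.0912), at group means of 4.32 to 4.63.

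Among 8 other lipid phosphatases and related proteins, ACP6, a mitochondrial phosphatase that converts LPA to monoacylglycerol, was the 1 called with Ac-4-deoxy-GlcNAc, where 5.64% of all probe sets were called lower. Its levels were 7.47, 7.48 and 7.57 in untreated cells, 7.19, 7.07 and 7.52 with Ac-GlcNAc, and 6.82, 7.03 and 6.98 with Ac-4-deoxy-GlcNAc. It fell by 0.56 (SE 0.12, adjusted p = 0.0103) and passed in each of the 9 fits that left out 1 array. Between the compounds its difference was -0.32 (adjusted p = 0.201), and PLPPR2, a membrane protein related to the lipid phosphatases, had -0.35 (adjusted p = 0.0978). With Ac-GlcNAc the smallest p belonged to PLPPR4 (-0.43, adjusted p = 0.121) and ACP6 (-0.24, adjusted p = 0.199).

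No gene passed among 15 for other routes to LPA, 8 acyltransferases that use LPA or its relatives, and 8 for the supply and breakdown of lysophosphatidylcholine, the substrate of autotaxin. Of all probe sets, 0.442%, 11.0% and 2.38% passed in the 3 comparisons. With Ac-GlcNAc, GPAT3, which makes LPA inside the cell from glycerol 3-phosphate, had 0.41 (SE 0.11, adjusted p = 0.0887), and LPCAT2, an acyltransferase of lysophosphatidylcholine, had 0.38 (SE 0.11, adjusted p = 0.0943). The lipase LIPI had -0.50 (adjusted p = 0.0851), and the phospholipases PLA2G4A and PLA2G2A had -0.44 and -0.36 (adjusted p = 0.0923 and 0.0972), these last 3 at low levels. With Ac-4-deoxy-GlcNAc, LIPI had -0.39, PLA2G4A -0.37 and PLA2G2A -0.34 (adjusted p = 0.0686, 0.0803 and 0.0629), and the acyltransferases AGPAT1 and LPCAT1 had -0.26 and -0.25 (adjusted p = 0.0865 and 0.0972).

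Between the compounds, LPCAT2 and LPCAT1 had -0.41 and -0.37 (adjusted p = 0.0779 and 0.065). LPCAT1 was at 9.15, 9.20 and 9.35 with Ac-GlcNAc and at 8.79, 8.88 and 8.93 with Ac-4-deoxy-GlcNAc, so the arrays did not overlap although the adjusted p missed the threshold. GPAM, the mitochondrial counterpart of GPAT3, had -0.35 (adjusted p = 0.224).

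Of 8 genes for sphingosine 1-phosphate, a lipid signal with receptors related to the EDG branch, 2 were higher with Ac-4-deoxy-GlcNAc, against 5.38% of all probe sets. They were SGPP1, a sphingosine 1-phosphate phosphatase (0.40, SE 0.11, adjusted p = 0.0401), and SGPL1, the lyase that degrades the lipid (0.33, SE 0.10, adjusted p = 0.0498). Each passed in 1 of the 9 fits that left out 1 array, with differences of 0.28 and 0.25 without untreated replicate 2. SGPP1 had 0.28 with Ac-GlcNAc (adjusted p = 0.144).

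Of 16 transcripts known to respond to LPA, YAP or SRF, 4 fell and 1 rose under Ac-4-deoxy-GlcNAc, a share of 31.2% against 11.0% of all probe sets. MMP7, the protease matrilysin, was at 8.47, 8.25 and 8.35 in untreated cells and at 7.38, 7.62 and 7.46 with Ac-4-deoxy-GlcNAc. With Ac-GlcNAc it had a mean of 7.87 ± 0.15 (SD, n = 3), each array lying between those of the other groups. It fell by 0.87 with Ac-4-deoxy-GlcNAc (SE 0.11, adjusted p = 0.000745), in each of the 9 fits that left out 1 array, and had -0.48 with Ac-GlcNAc (adjusted p = 0.0678). In MMP7 both treated groups thus lay below untreated, unlike in ENPP2. PTGS2, or cyclooxygenase 2, fell by 0.41 (adjusted p = 0.0212), PLAU, or urokinase, by 0.38 (adjusted p = 0.036), and CCN2, or connective tissue growth factor, by 0.35 (SE 0.10, adjusted p = 0.036). PTGS2 had a mean level of 4.45, in the lowest of the 4 bins, where all probe sets had a median of -0.18. It passed in 13 of 20 alternatives, where its difference shrank to as little as -0.22. CCN2 is named beyond the naming rule to complete the count. Of the 9 fits that left out 1 array, PTGS2 passed in 7, CCN2 in 3 and PLAU in 2, and none of the 3 passed without untreated replicate 2 (adjusted p = 0.0528, 0.0897 and 0.0666). The list holds these transcripts whatever the signal that induces them, and its share was not tested against other lists.

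IL6 and CCN2 were the 2 pathway genes that passed between the compounds. The cytokine IL6 was at 5.74, 6.11 and 6.15 in untreated cells, 6.21, 5.81 and 6.08 with Ac-GlcNAc, and 6.73, 6.57 and 6.62 with Ac-4-deoxy-GlcNAc, so only the Ac-4-deoxy-GlcNAc arrays stood apart. It was higher than with Ac-GlcNAc by log2 0.61 (SE 0.13, adjusted p = 0.0256) and than untreated by 0.64 (SE 0.13, adjusted p = 0.00926). A second probe set of IL6, at a mean level of 4.29, had 0.25 (adjusted p = 0.396) and 0.03 (adjusted p = 0.865), and the mean of both probe sets did not pass (adjusted p = 0.0698 and 0.0714). The first of these differences of IL6 passed in 5 of the 9 fits that left out 1 array. In CCN2 the Ac-4-deoxy-GlcNAc level was below the Ac-GlcNAc level (log2 -0.40, SE 0.10, adjusted p = 0.0461), and passed in 1 of the 9 fits that left out 1 array.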

How the data were processed

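The deposited values are log2 levels, 1 per probe set and array, made by the authors with RMA and Partek on build hg18, per the submitters' processing notes. Versions and settings are not given in the sources used here. Of 17859 probe sets, 14413 were annotated to 1 gene, 2405 to several and 1041 to none. Symbols were updated by gene identifier from RefSeq (GRCh38.p14), where 14385 of 14413 were found. For genes with several probe sets of 1 gene (195 of 14215), the one with the highest mean was used.

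All 9 arrays entered 1 limma fit (limma 3.58.1, R 4.3.3; lmFit and eBayes, group as the only term, 6 residual degrees of freedom), and two-sided p-values were adjusted across every probe set by Benjamini-Hochberg, with a call at an adjusted p under 0.05. The code was tested on simulated data. The number of arrays limits the precision (median SE of a log2 difference 0.11). No filter was applied.

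Pathway genes were named by a rule: per list, up to 4 called by size, or, in lists without a call, up to 2 by smallest p. One of the 9 lists enters the totals but is not reported here. The members and lists were chosen with earlier results of these data known. Alternatives were a replicate block, normalization by cyclic loess, quantiles or medians, filters on mean level (25th or 50th percentile), other eBayes options, array weights, the 6 compared arrays alone, each array's SD as a covariate, the mean of a gene's probe sets, a 1.5-fold minimum and leaving out arrays. The labels' extraction protocol names separate flasks per condition, and no batch or scan date was used here.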

Additional observations from a re-analysis of the deposited data

Results flagged for a closer look

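Among the core genes and the 86 pathway genes, the effects of the 2 sugars against untreated cells were flagged as different for 3. The 5 genes closest to ENPP2 also differed between the compounds, from log2 -0.97 for TCEANC to -1.30 for TDO2. They were chosen for that likeness and are not counted here. For ENPP2 the difference between the effects was -2.22, with each Ac-GlcNAc array above and each Ac-4-deoxy-GlcNAc array below all untreated arrays. It was not tested, because ENPP2 was chosen for this pattern. For IL6 the difference was 0.61 and for CCN2 it was -0.40, both called by the test of the difference itself (limma adjusted p = 0.0256 and 0.0461). Neither call was firm. With 1 array left out, IL6 passed in 5 and CCN2 in 1 of 9 fits, and the mean of the IL6 probe sets did not pass (limma adjusted p = 0.0698).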

How the results depend on the processing

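ENPP2 log2 differences over 20 alternatives were 1.12 to 1.34 with Ac-GlcNAc, -1.05 to -0.88 with Ac-4-deoxy-GlcNAc and -2.32 to -2.16 between the compounds. With 1 array left out, where separate bands fix the direction, they ran from 1.24 to 1.34, -1.05 to -0.88 and -2.32 to -2.16. Filters and eBayes options cannot change them. The 1.12 came with array SD as covariate. The filter at the 50th percentile left out ENPP2, LPAR2, LPAR3 and LPAR6, and that at the 25th left out LPAR6.

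Of the other 7 genes, 1 (LPAR1) was called with Ac-GlcNAc under array weights. With Ac-4-deoxy-GlcNAc 1 (PLPP3) was called under cyclic loess, quantile normalization, both filters and the trend and robust options, and 0 to 1 with 1 array left out, the 1 being without untreated replicate 1. Between the compounds it was 0 in all 22 alternatives.

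The count of 0 of 86 pathway genes with Ac-GlcNAc became 3 with the replicate block, 1 with cyclic loess, quantile normalization or the 50th percentile filter, 8 with array weights, and 0 to 5 with 1 array left out, where 5 came without untreated replicate 1. The count of 11 with Ac-4-deoxy-GlcNAc became 3 on the 6 compared arrays, with the SD covariate, or when untreated replicate 2 was left out along with replicate 1 of Ac-4-deoxy-GlcNAc, and 2 with the 1.5-fold minimum. It ran from 3 (without untreated replicate 2) to 15 with 1 array left out, and was 4 without Ac-4-deoxy-GlcNAc replicate 3. The count of 2 between the compounds became 1 with cyclic loess, quantile normalization, median centring, the mean of probe sets or the fold minimum, 5 with either filter, 4 with the trend and robust options or the 6 compared arrays, 10 with array weights and 0 without both arrays above. It ran from 0 to 5 with 1 array left out. The causes were not tested, except that the fold minimum calls fewer genes by construction.

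Whether replicate numbers mark pairs is not known. For 9 same-number array pairs, deviations from group means correlated at -0.245 to 0.369, 3 above 0.1. For pairs of arrays with different numbers, from different groups, the range was -0.402 to 0.406. With the replicate block, CCN2 between the compounds and SGPL1 with Ac-4-deoxy-GlcNAc were not called (adjusted p = 0.063 and 0.0621). The block added calls for ENPP3, LIPI and MMP7 with Ac-GlcNAc (adjusted p = 0.0412, 0.035 and 0.0486), and for LIPI and PLA2G4A with Ac-4-deoxy-GlcNAc (adjusted p = 0.0322 and 0.0444). The count of 1 probe set with 3 separate bands and 1.5-fold steps was the same after cyclic loess, quantile normalization and median centring, checks added after the data were seen. It was 1 to 2 with 1 array left out. Separate bands stay separate when an array is removed, so ENPP2 remained by construction. Signal over background is not known from the values used here. That limits what can be said of low probe sets such as LPAR6, and of ENPP2 with Ac-4-deoxy-GlcNAc.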
